A study of Mus musculus with 30 samples.

Results

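The genes described here are 8 well-known transcriptional targets of FGF and ERK signalling, Spry2, Spry4, Spred1, Spred2, Dusp4, Dusp6, Etv4 and Etv5. They were taken by name, by a rule that uses no measured value although earlier results of these data were known, and they are 8 of the 22477 genes in the expression table. The RNA-seq libraries were made from poly(A)-selected RNA of mouse secondary induced pluripotent stem cells (iPSCs), a line in which doxycycline (dox) induces transgenes of Oct4, Sox2, Klf4 and cMyc (together OSKM). It also carries a GFP reporter in the Nanog gene and a nuclear RFP that is always on. The line was kept on CF1 mouse embryonic fibroblasts (MEFs) in serum and LIF, and 0 h stands for cells changed to N2B27 medium with LIF and 2i, the GSK3 inhibitor CHIR99021 and the MEK inhibitor PD0325901. Differentiation was started by withdrawing 2i/LIF in N2B27, and RNA was collected at 0, 24, 36, 48, 60, 72 and 96 h. Cells differentiated for 0, 24, 48 or 96 h were also moved to serum/LIF and grown there for 48 h either in the absence (–dox) or in the presence (+dox) of the drug, which induces OSKM. These 15 conditions comprise 30 samples, 2 in each, all from the same line, which limits them as a model of differentiation in general. Cells re-seeded at 0 h differ from 0 h cells by the base medium, the serum and the absence of both inhibitors. The re-seeding itself and 48 h of further culture differ as well. For the study's colony assay, cells differentiated on gelatin and were re-seeded on CF1 MEFs at a lower density. The surface and density for RNA-seq are not stated, so these may differ too. Withdrawal removes LIF with both inhibitors. The release from MEK inhibition therefore cannot be told apart from the other changes.

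As background, receptor tyrosine kinases such as the FGF receptors activate Ras, Raf, MEK and ERK in turn, and ERK induces genes that dampen the same cascade. Sprouty proteins act near the receptor and Ras, Spred proteins recruit neurofibromin to keep Ras inactive, and the dual-specificity phosphatases encoded by Dusp4 (nuclear) and Dusp6 (cytoplasmic) remove the activating phosphates from mitogen-activated kinases. Etv4 and Etv5 encode transcription factors of the PEA3 group of the ETS family, which carry the signal into the nucleus. In mouse pluripotent cells FGF4 is the main source of ERK activity, and MEK inhibition holds the cells in the naive state.

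The deposited table gives 1 FPKM value (fragments mapped to a gene, scaled by transcript length and library size) per gene and condition, in which the authors combined both samples with Cuffdiff. No value of a single sample is given, so the spread between samples is unknown, no difference could be tested, and neighbours in any order of levels cannot be called different. Throughout, changed, rose or fell mean a ratio of 2 or more between 2 conditions, with 1 FPKM or more in the higher of them. Summed over genes, a condition held between 603278 and 832607 FPKM. From the steps between low values, a 2 kb gene at 1 FPKM corresponded to between 28.6 and 99.3 steps, a rough measure of depth and not a read count. The pluripotent state was checked with Pou5f1 (Oct4), Sox2 and Nanog. At 0, 24, 48 and 96 h of withdrawal Pou5f1 was at 199, 279, 205 and 25.5 FPKM. Nanog was at 227, 46.5, 6.45 and 14.5 FPKM at these timepoints, and Sox2 at 248, 151, 46.7 and 33.0 FPKM. In –dox cells re-seeded at 0 h Pou5f1 was higher than at 0 h (360 FPKM), and Nanog (120 FPKM) and Sox2 (224 FPKM) were lower. In –dox cells re-seeded at 24, 48 and 96 h Pou5f1 was at 213, 72.6 and 2.63 FPKM. Nanog was at 2.13 FPKM and Sox2 at 16.3 FPKM in those from 96 h. In +dox cells from 96 h Pou5f1, Nanog and Sox2 were at 9.95, 8.63 and 19.6 FPKM. The cells re-seeded at 96 h thus held little of these markers with or without dox. The 20 fibroblast markers summed to 1283 FPKM at 0 h, with 18 of them at 1 FPKM or more, and Col1a1 alone stood at 229 FPKM there. Their sum was 398 FPKM at 24 h, between 84.3 and 196 FPKM from 36 h to 96 h, and between 63.1 and 493 FPKM in the re-seeded cells. Fap was listed at 0 in all conditions except 0 h, 24 h and the –dox cells re-seeded at 96 h. Its highest value was only 0.367 FPKM, so its zeros lie near the floor and say little about fibroblast RNA. The markers did not all move alike. With 48 h set against 0 h, 18 of them reached 1 FPKM, of which 15 were lowered and 1 was raised. The raised marker was Thy1 (17.7 against 4.01 FPKM). The part of fibroblast RNA in the results below was not tested.

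In mm10, Etv4 and Spred2 lie on chromosome 11 (positions 101769742 to 101785371, minus strand, and 19924375 to 20024026, plus strand). Dusp6 is on chromosome 10 from 99263231 to 99267489 (plus strand), Spry2 on chromosome 14 from 105891947 to 105896819 (minus strand), Etv5 on chromosome 16 from 22381309 to 22439719 (minus strand), Spred1 on chromosome 2 from 117121374 to 117182279 (plus strand) and Dusp4 on chromosome 8 from 34807297 to 34819894 (plus strand). The position of Spry4 is given with its values. RefSeq promoter sequences were at hand for 5 of the 8 genes, Spry2, Spred1, Spred2, Dusp6 and Etv5, the last with 2 start sites, and Spry4, Dusp4 and Etv4 are named only. Capicua is a repressor of Etv genes whose hold is relieved by ERK signalling, and its octamers (TGAATGAA, TGAATGGA, TCAATGAA and TCAATGGA, on both strands) were searched in the 250 bases before and 50 bases after each start. They were present in 2 of the 6 promoter entries and in 3.84% of all 32851 promoters. The 250 bases upstream of the start are shown for both genes that hold an octamer, and for the internal start of Etv5, which lies within an intron of the annotated gene and holds the near relative TGAATGGG, a motif chosen after the sequences were seen. The sequences are on GRCm38.p6 (mm10), 5′ to 3′ on the strand of the gene, with the motif in capitals on either strand.
Dusp6, chr10:99262981-99263230, plus strand: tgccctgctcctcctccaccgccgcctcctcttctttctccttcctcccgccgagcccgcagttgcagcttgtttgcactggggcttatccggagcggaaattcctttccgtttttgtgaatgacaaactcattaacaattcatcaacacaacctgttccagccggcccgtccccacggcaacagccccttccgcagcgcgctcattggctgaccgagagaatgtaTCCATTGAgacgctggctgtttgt
Spry2, chr14:105896820-105897069, minus strand: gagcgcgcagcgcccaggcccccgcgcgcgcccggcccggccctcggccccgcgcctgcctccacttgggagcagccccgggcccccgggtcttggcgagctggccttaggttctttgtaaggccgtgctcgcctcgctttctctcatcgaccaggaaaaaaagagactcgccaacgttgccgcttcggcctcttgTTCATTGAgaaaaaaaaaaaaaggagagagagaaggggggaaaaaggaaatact
Etv5, internal start, chr16:22438369-22438618, minus strand: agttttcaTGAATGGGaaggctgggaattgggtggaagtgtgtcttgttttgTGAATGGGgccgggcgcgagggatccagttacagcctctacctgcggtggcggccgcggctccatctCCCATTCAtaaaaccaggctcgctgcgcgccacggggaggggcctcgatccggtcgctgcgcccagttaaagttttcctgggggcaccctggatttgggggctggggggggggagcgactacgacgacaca
Counted with the base before the first transcribed base as -1, the octamer starts at -24 in Dusp6 and at -54 in Spry2. Dusp6 has a further copy that starts 1 base after the first transcribed base, just past the stretch shown. The TGAATGGG motif, present in 1.08% of promoters, occurs 3 times in the Etv5 stretch, starting at -242, -198 and -131. The ETS motif CCGGAAGT (3.89% of promoters), the AP-1 motif TGANTCA (7.81%), the STAT motif TTCNNNGAA (8.30%) and the CArG box of SRF (1.63%) were in 0 of the 6 entries. These matches describe letters in a short window and do not show binding.

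At the naive start, with MEK inhibited, the 8 genes stood at very unequal levels. Etv5 was at 106 FPKM, and Etv4, Spry2 and Spred2 were at 23.2, 19.6 and 17.3 FPKM. Spred1 was at 7.54, Dusp6 at 3.61, Dusp4 at 1.78 and Spry4 at 0.446 FPKM, or 33.5 of the steps described above for Spry4 and 76.8 for Dusp4. Withdrawal of 2i/LIF for 24 h raised 4 of the 8 genes at least 2-fold and lowered 0. Of all genes that reached 1 FPKM in this comparison, 8.64% rose and 14.3% fell. The median log2 ratio of the 8 genes was 1.09, against -0.01 over all genes. The 4 that rose were the 4 with the lowest values at 0 h. The 0 h value divides each ratio, so a low value there favours a high ratio.

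**Figure D1:**
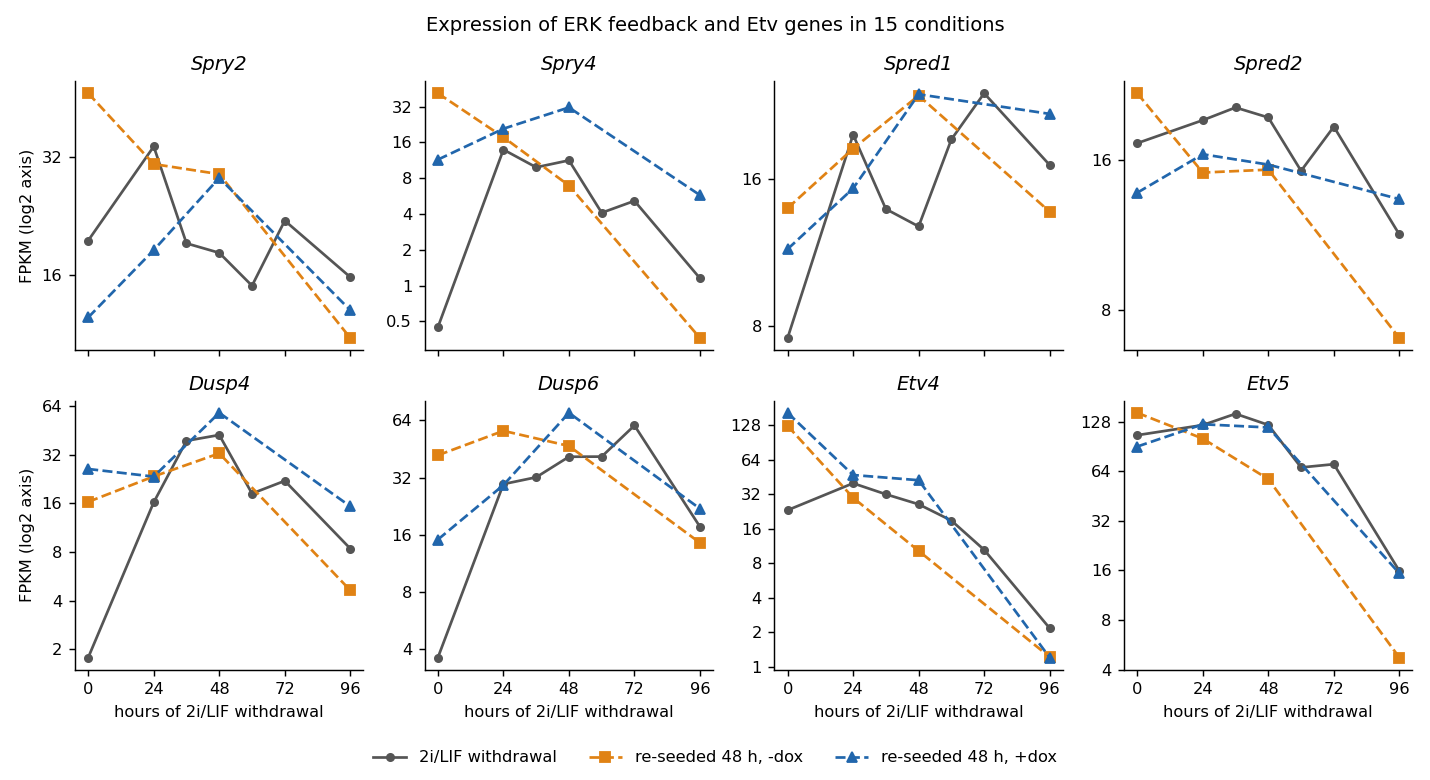
FPKM of each gene (vertical log2 axis, its range set for each gene) against hours of 2i/LIF withdrawal (horizontal axis), for the time course (grey circles) and for re-seeded cells after 48 h in serum/LIF, –dox (orange squares) or +dox (blue triangles), each point being 1 combined value. In the time course Spry4, Dusp4 and Dusp6 start at 0.446, 1.78 and 3.61 FPKM and lie higher at all later timepoints, while Etv4 and Etv5 end at 2.17 and 15.9 FPKM, their lowest values in that course.

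Of the Sprouty genes, which encode inhibitors acting at the level of the receptor and Ras, Spry4 changed most. It lies on chromosome 18 of mm10 from 38586247 to 38601415, on the minus strand. Its values over the 7 timepoints of withdrawal were 0.446, 13.9, 9.88, 11.3, 4.10, 5.16 and 1.15 FPKM. The rise in the first 24 h was 31.2-fold, a log2 ratio of 4.97, and placed Spry4 26th from the top of the 12811 genes with a ratio. With 1 FPKM added to both values this log2 ratio was 3.37. Spry4 then fell between 48 and 60 h (log2 ratio -1.47) and again between 72 and 96 h (-2.17). Its value at 96 h was still 2.58-fold above that at 0 h, although both were low, and with 1 FPKM added to each the log2 ratio was 0.57 and under 2-fold. Spry2 was at 19.6, 34.0, 19.3, 18.3, 15.1, 22.0 and 15.8 FPKM over the same timepoints. It peaked at 24 h, 1.73-fold above 0 h, and stayed within a 2-fold distance of its starting value throughout. Spry2 thus exceeded Spry4 by 44.0 times at 0 h and by 1.62 times at 48 h, and by 13.8 times at 96 h.

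The Spred genes encode membrane-bound partners of neurofibromin. Spred1 was at 7.54, 19.7, 13.9, 12.8, 19.3, 23.9 and 17.1 FPKM. It had risen 2.61-fold by 24 h and 3.17-fold by 72 h, while at 36 and 48 h it was 1.84-fold and 1.69-fold above 0 h, short of the threshold. Spred2 was at 17.3, 19.3, 20.4, 19.5, 15.2, 18.7 and 11.4 FPKM and crossed the threshold against 0 h at 0 of the 6 later timepoints. The order of the pair turned over, from Spred2 at 2.30 times Spred1 at 0 h to 0.666 times at 96 h.

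Both phosphatase genes rose early and differed in when they peaked. Dusp4 was at 1.78, 16.2, 38.9, 42.3, 18.4, 22.0 and 8.38 FPKM. It rose 9.13-fold in the first 24 h (log2 ratio 3.19) and a further 2.40-fold from 24 to 36 h, when it alone of the 8 rose and 5.44% of all genes did. It reached its highest value at 48 h and then fell 2.30-fold by 60 h, when Spry4 fell as well, in a step in which 4.27% of all genes fell. Dusp6 was at 3.61, 29.6, 32.1, 41.2, 41.3, 60.2 and 17.6 FPKM. It rose 8.19-fold in the first 24 h (log2 ratio 3.03) and reached its highest value at 72 h, 16.7-fold above 0 h. At 36 h Dusp4 was above Dusp6, and at 72 h Dusp6 was 2.73 times Dusp4.

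Etv4 and Etv5 behaved differently from the phosphatases. Etv4 was at 23.2, 39.8, 31.9, 26.1, 18.8, 10.5 and 2.17 FPKM, with its peak at 24 h only 1.72-fold above 0 h. Against 0 h its log2 ratio was -1.15 at 72 h, a fall that ended with values scaled to the same sum (-0.77), and -3.42 at 96 h, or 10.7-fold lower. Etv5, the most abundant of the 8 genes at 0 h, was at 106, 122, 143, 122, 67.4, 70.5 and 15.9 FPKM. Its ratio to 0 h at 24 h was 1.15, and at 96 h it had fallen by 2.74 on the log2 scale, or 6.66-fold. Etv5 was 29.3 times Dusp6 at 0 h, 4.12 times at 24 h and 0.901 times at 96 h.

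Against 0 h, whose value enters all 6 of these comparisons, 3 of the 8 genes were raised at 36 h (11.3% of all genes) and 3 at 48 h (12.1%), which were Spry4, Dusp4 and Dusp6 at both. Spred1 joined them at 60 h, making 4 (13% of all genes), and 4 were raised at 72 h (15%) with Etv4 lowered (15.9%), the latter not so with values scaled to the same sum. At 96 h the same 4 genes were above 0 h by at least 2-fold (16.8% of all genes), with log2 ratios of 2.29 for Dusp6, 2.24 for Dusp4, 1.37 for Spry4 and 1.18 for Spred1, and both Etv genes were below it (16.4%). From 72 to 96 h all 8 genes had lower values, with log2 ratios from -2.27 to -0.48 and a median of -1.58, and 5 genes fell at least 2-fold, Etv4, Spry4, Etv5, Dusp6 and Dusp4, where 5.01% of all genes did. Pou5f1 went from 123 to 25.5 FPKM in the same interval, Nanog from 38.9 to 14.5 FPKM and Sox2 from 36.9 to 33.0 FPKM. In bulk RNA, fewer cells that express a gene and less RNA per cell cannot be told apart. From 36 to 48 h 0 of the 8 changed, in a step where 2.78% of all genes rose and 2.01% fell, and from 60 to 72 h it was again 0, against 2.97% and 2.27%.

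Cells re-seeded at 0 h in serum/LIF without dox differed from 0 h cells in 2i/LIF by higher values of all 8 genes. The log2 ratio had a median of 1.84, against -0.01 over all genes, and 5 of the 8 rose at least 2-fold, while 12% of all genes did and 10.1% fell. Spry4 went from 0.446 to 41.5 FPKM, a log2 ratio of 6.54 that placed it 4th from the top of all genes. With 1 FPKM added to both values its log2 ratio was 4.88. Dusp6 went from 3.61 to 41.9 FPKM (11.6-fold), Dusp4 from 1.78 to 16.3 FPKM (9.19-fold), Etv4 from 23.2 to 126 FPKM (5.45-fold) and Spry2 from 19.6 to 46.4 FPKM (2.36-fold). The other members stayed under 2-fold, with Spred1 at 13.9 FPKM (1.84-fold, but past 2-fold with a log2 ratio of 1.12 once scaled to the same sum), Etv5 at 145 FPKM (1.37-fold) and Spred2 at 21.8 FPKM (1.26-fold). Pou5f1 was 360 FPKM in the re-seeded cells and 199 FPKM at 0 h. Nanog was 120 against 227 FPKM and Sox2 224 against 248 FPKM. The fibroblast markers summed to 106 FPKM against 1283 FPKM, of which Vim held 91.8 and 382 FPKM. Serum/LIF cells and cells 24 h after withdrawal, both without MEK inhibitor, held Dusp4 at 16.3 and 16.2 FPKM, whereas Etv4 stood at 126 against 39.8 FPKM and Spry4 at 41.5 against 13.9 FPKM.

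**Figure D2:**
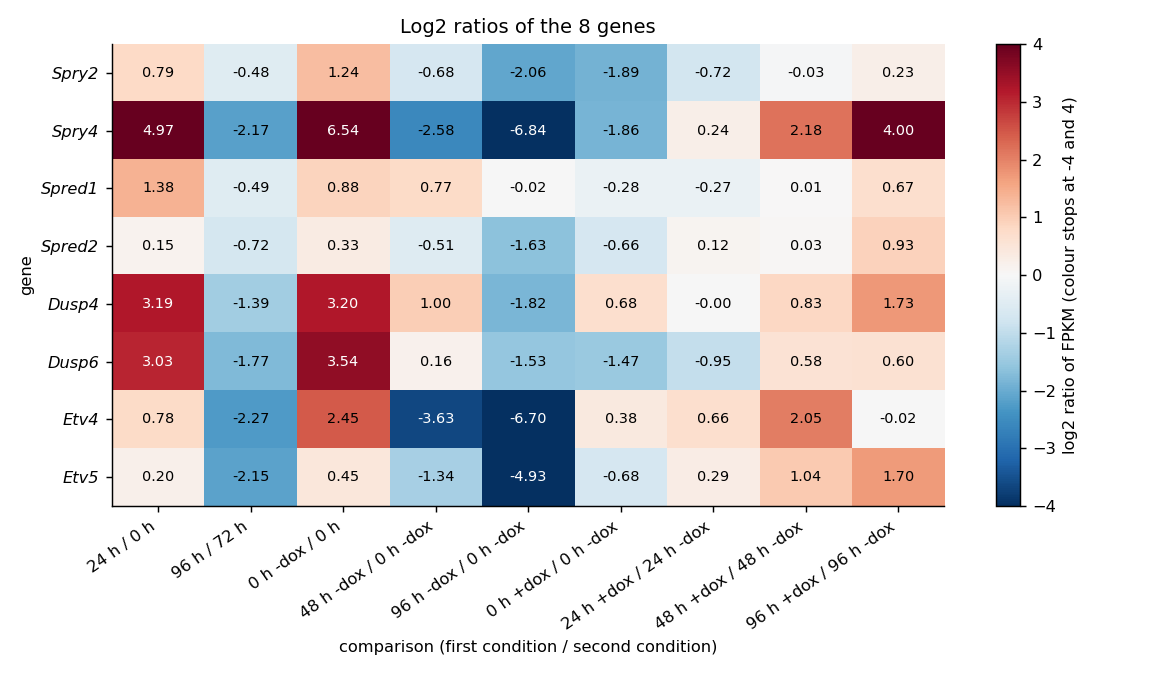
Log2 ratio of FPKM (colour and printed value) for the 8 genes (vertical axis) in 9 comparisons (horizontal axis, first condition over second), with red for higher and blue for lower in the first condition. The column of 72 to 96 h is blue for all 8 genes (-2.27 to -0.48), the column of serum/LIF at 0 h against 2i/LIF is red for all 8 (0.33 to 6.54), and the columns of dox change from mostly blue at 0 h to mostly red at 96 h.

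After differentiation and a return to serum/LIF without dox, the 8 genes followed more than 1 pattern. Across –dox cells re-seeded at 0, 24, 48 and 96 h, Spry4 was at 41.5, 17.7, 6.95 and 0.361 FPKM, the last equal to 28.4 steps. Etv4 was at 126, 29.8, 10.2 and 1.21 FPKM, and Etv5 at 145, 101, 57.2 and 4.73 FPKM. These 3 genes were lower at each successive time of re-seeding. Spry2 (46.4, 30.7, 28.9 and 11.1 FPKM) was ordered in the same way. Spred2 (21.8, 15.1, 15.3 and 7.04 FPKM) was lowest from 96 h as well, with nearly equal values from 24 and 48 h. The phosphatase genes and Spred1 instead had their highest values from 24 or 48 h. Dusp4 was at 16.3, 23.4, 32.6 and 4.63 FPKM. Dusp6 was at 41.9, 56.4, 46.9 and 14.5 FPKM. Spred1 was at 13.9, 18.4, 23.7 and 13.7 FPKM, the gene of the 8 whose value from 96 h differed least from that from 0 h.

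Relative to –dox cells re-seeded at 0 h, Etv4 and Spry4 were lower in those from 24 h, which makes 2 of 8 where 11.4% of all genes were lower. Etv4, Spry4 and Etv5 were lower from 48 h, 3 of 8 against 17.4% of all genes, with log2 ratios of -3.63, -2.58 and -1.34. Dusp4 was 1.995-fold higher there, just short of the threshold. Its log2 ratio was 1.003 with median-ratio scaling and 0.77 with values scaled to the same sum. From 96 h, 7 of 8 were lower, against 21.7% of all genes. The log2 ratios there were -6.84 for Spry4, -6.70 for Etv4, -4.93 for Etv5, -2.06 for Spry2, -1.82 for Dusp4, -1.63 for Spred2 and -1.53 for Dusp6, with Spred1 at -0.02. With 1 FPKM added, the ratios of Spry4 and Etv4 were -4.96 and -5.85.

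The re-seeded –dox cells were also set beside the timepoint from which they were taken. From 24 h, 0 of 8 changed by 2-fold, while 14.9% of all genes rose and 10.6% fell, and Dusp6 came closest at 1.91-fold higher. Scaled to the same sum of values, Dusp6 passed 2-fold in this comparison. From 48 h, Etv4 and Etv5 fell (log2 ratios -1.35 and -1.09), 2 of 8 against 11.5% of all genes. From 96 h, Etv5 and Spry4 fell (-1.75 and -1.67), 2 of 8 against 11.2% of all genes, although with 1 FPKM added Spry4 was at -0.66 and under 2-fold. Cells left in N2B27 for the same total time are a further reference. Cells re-seeded at 24 h, which are as old as the 72 h timepoint, had more Spry4 (17.7 against 5.16 FPKM) and Etv4 (29.8 against 10.5 FPKM), 2 of 8 where 5.4% of all genes were higher. Cells re-seeded at 48 h, as old as the 96 h timepoint, had 5 of 8 higher, where 6.36% of all genes were, and all 8 above a ratio of 1. These were Spry4 (6.95 against 1.15 FPKM), Etv4 (10.2 against 2.17 FPKM), Dusp4 (32.6 against 8.38 FPKM), Etv5 (57.2 against 15.9 FPKM) and Dusp6 (46.9 against 17.6 FPKM).

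Dox, which switches on the OSKM transgenes, was compared at each time of re-seeding. In +dox cells re-seeded at 0, 24, 48 and 96 h, Spry4 was at 11.5, 20.9, 31.5 and 5.76 FPKM and Spry2 at 12.5, 18.6, 28.3 and 13.1 FPKM. Both Sprouty genes were thus highest from 48 h, whereas without dox both were highest from 0 h. Dusp4 was at 26.1, 23.4, 58.0 and 15.3 FPKM and Dusp6 at 15.1, 29.2, 70.2 and 21.9 FPKM, and for both the value from 48 h was the highest of all 15 conditions. Spred1 was at 11.5, 15.3, 23.8 and 21.7 FPKM. Spred2 was at 13.8, 16.5, 15.7 and 13.4 FPKM. Etv4 was at 164, 47.0, 42.3 and 1.20 FPKM, its value from 0 h being its highest of all conditions and that from 96 h its lowest. Etv5 was at 90.2, 123, 118 and 15.3 FPKM.

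In cells that had not differentiated, dox lowered 3 of the 8 genes, where 5.61% of all genes were lower, and raised 0 (3.62%). The log2 ratios of +dox to –dox were -1.89 for Spry2, -1.86 for Spry4 and -1.47 for Dusp6. Dusp4 and Etv4 were higher with dox by 0.68 and 0.38 on the log2 scale, and Etv5 was at -0.68, all short of the threshold. From 24 h, 0 of 8 changed, against 2.87% of all genes that rose and 3.4% that fell, with Dusp6 at -0.95, past 2-fold once the values were scaled to the same sum. From 48 h, 3 of 8 rose, where 6.56% of all genes did. These were Spry4 (6.95 to 31.5 FPKM, log2 ratio 2.18), Etv4 (10.2 to 42.3 FPKM, 2.05) and Etv5 (57.2 to 118 FPKM, 1.04), the last under 2-fold (0.95) with values scaled to the same sum. The Spry2, Spred1 and Spred2 values differed by less than 0.04 on the log2 scale. From 96 h, 3 of 8 rose, where 6.67% did. Spry4 went from 0.361 to 5.76 FPKM, a log2 ratio of 3.995 (2.31 with 1 FPKM added), 20th from the top of all genes. Dusp4 went from 4.63 to 15.3 FPKM (3.31-fold) and Etv5 from 4.73 to 15.3 FPKM (3.24-fold). Etv4 did not move with its paralog, at 1.21 FPKM without and 1.20 FPKM with dox. The ratio of Etv5 to Etv4 was thus 12.8 in +dox cells from 96 h, 3.90 in –dox cells from 96 h, and 0.550 in +dox cells from 0 h, where Etv4 was the higher of the pair.

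Relative to undifferentiated –dox cells in the same medium, +dox cells from 24 h had 2 of 8 genes lower (8.82% of all genes), Etv4 and Spry2, with log2 ratios of -1.43 and -1.32. Spry4 there was 1.99-fold lower, just short of the threshold and past it with median-ratio scaling and with values scaled to the same sum (-1.07). From 48 h, Etv4 was lower (-1.58, in a comparison where 13.3% of all genes were lower) and Dusp4 higher (1.83, where 11.3% were higher). From 96 h, 4 of 8 were lower (19.6% of all genes), Etv4 at -6.72, Etv5 at -3.24, Spry4 at -2.85 and Spry2 at -1.83, while Dusp4 differed by -0.09. Scaled to the same sum, Spry2 from 48 h (-1.04) and Dusp6 from 96 h (-1.13) were lower as well.

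Over all 15 conditions, the highest value of a gene exceeded its lowest 136.7 times for Etv4, 114.9 times for Spry4, 32.7 times for Dusp4, 30.6 times for Etv5 and 19.4 times for Dusp6. The range was 4.18 times for Spry2, 3.17 times for Spred1 and 3.10 times for Spred2, and the median over 13623 genes above 0 in every condition was 3.52 times. The Sprouty and Etv pairs therefore each hold genes of unlike range. The lowest values of Spry4 and Etv4, 0.361 and 1.20 FPKM, divide the 2 widest ranges, so their size depends on values near the floor. With 1 FPKM added, the log2 ratio of the lowest to the highest Spry4 value was -4.96. Most places in the order of levels were close. In Etv4 the largest gaps were above 96 h (4.73-fold) and below the cells re-seeded at 0 h (2.69-fold), and in Etv5 they were above 96 h (3.60-fold) and above the –dox cells re-seeded at 96 h (3.24-fold). In Dusp6 the lowest condition, 0 h, stood 4.02-fold below the next, and in Dusp4 it stood 2.61-fold below. Adjacent conditions in the order of Spred2 were never more than 1.61-fold apart.

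The patterns of the 8 genes were compared by Pearson's r of log2(FPKM + 1) over the 15 conditions, given as a description, since the conditions share a cell line and the re-seeded cells derive from the time course. The 28 pairs had a median r of 0.51 over 15 conditions and of 0.48 over the 7 timepoints, with 25 pairs above 0 in each case. Pairs of other genes were not summarized in this way, so these figures do not set the 8 genes apart. Etv4 and Etv5 (0.87), Spred2 and Etv5 (0.89), Dusp4 and Dusp6 (0.82), Spred1 and Dusp6 (0.77) and Spry4 and Dusp4 (0.76) were the closest pairs. Spred1 and Etv4 ran against each other most, with r of -0.28. Dusp6 and Etv4, both taken as readouts of ERK activity, had r of 0.18.

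**Figure D3:**
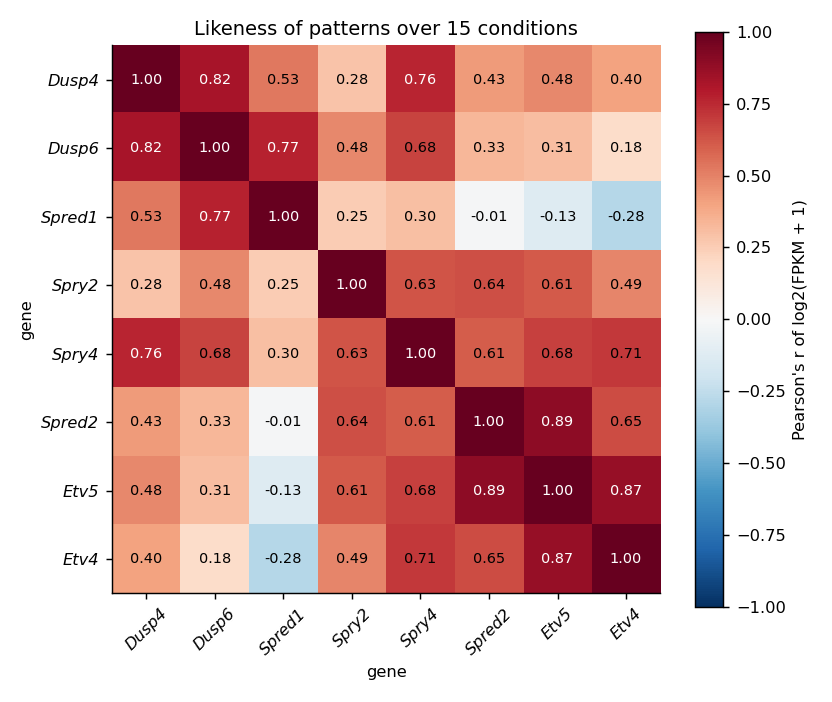
Pearson's r of log2(FPKM + 1) over 15 conditions for each pair of the 8 genes (both axes), with red for positive and blue for negative values. Dusp4, Dusp6 and Spred1 form a block at the upper left (0.53 to 0.82) and Spred2, Etv5 and Etv4 one at the lower right (0.65 to 0.89), and Spred1 has values at or under 0 with the latter.

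Among the 11152 genes that reached 5 FPKM in some condition, those most like Etv5 were Pou5f1 (r of 0.970), Sephs2 (0.955) and Gdf3 (0.952), and those most like Etv4 were Tet1 (0.967), Mkrn1 (0.965) and Piwil2 (0.960). Tet1 encodes a 5-methylcytosine dioxygenase and Gdf3 a ligand of the TGF-beta family. Dusp6 was most like Jmjd1c (0.905), 1190005I06Rik (0.889) and Slc1a3 (0.869), and Dusp4 most like 1190005I06Rik (0.936), Ptcra (0.894) and Kctd3 (0.880). Spry4 was most like Kdm4c (0.915), Ndc1 (0.901) and Grk6 (0.868), and Spry2 most like Dtd2 (0.913), Ttk (0.902) and Ier2 (0.888), the last an immediate early gene. Spred1 was most like Stk17b (0.897), Gja1 (0.897) and Slc6a15 (0.846), and Spred2 most like Zfp7 (0.892), Etv5 (0.892) and Sephs2 (0.891). The r with Pou5f1 was 0.928 for Etv4, 0.816 for Spred2, 0.652 for Spry4, 0.550 for Spry2, 0.430 for Dusp4, 0.243 for Dusp6 and -0.19 for Spred1. In +dox cells an Oct4 transgene is induced, so their Pou5f1 values may include its reads. Such reads cannot be told apart here from those of the endogenous gene.

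**Figure D4:**
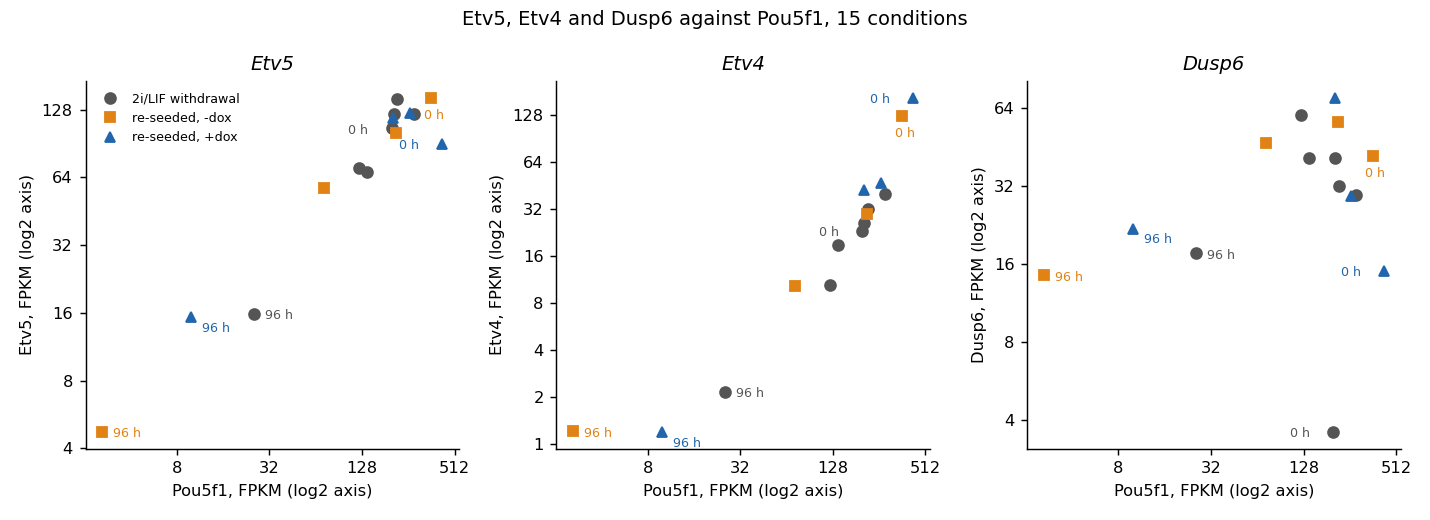
FPKM of Etv5, Etv4 and Dusp6 (vertical log2 axes) against FPKM of Pou5f1 (horizontal log2 axis) in the 15 conditions, marked as time course (grey circles), re-seeded –dox (orange squares) and re-seeded +dox (blue triangles), with the 0 h and 96 h conditions written beside their points. Etv5 and Etv4 lie low where Pou5f1 is low (r of 0.970 and 0.928), and Dusp6 has its lowest value, 3.61 FPKM, at 0 h, where Pou5f1 stood at 199 FPKM (r of 0.243). The Pou5f1 values of +dox cells may include reads of the induced Oct4 transgene.

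Of 18 relatives and other feedback genes listed beside the 8, 17 were in the table and 16 reached 1 FPKM in each comparison given here. After 24 h of withdrawal 4 of them rose (Spred3, Dusp5, Etv1 and Phlda1) and 3 fell (Dusp1, Dusp10 and Lrig1), with a median log2 ratio of 0.24. Over all genes 8.64% rose and 14.3% fell. Etv1, the third PEA3 factor, went from 1.93 to 12.7 FPKM, and Dusp1, an inducible nuclear phosphatase, from 42.5 to 16.8 FPKM. In serum/LIF at 0 h compared with 2i/LIF, 5 rose (Spry1, Dusp5, Dusp9, Etv1 and Phlda1) and 2 fell (Dusp10 and Dusp14), beside 12% and 10.1% of all genes. Dusp9, a cytoplasmic ERK phosphatase, went from 13.5 to 67.0 FPKM and Spry1 from 3.98 to 14.9 FPKM. At 96 h of withdrawal 7 were higher than at 0 h and 1 lower, beside 16.8% and 16.4% of all genes. Dusp9 had another order than Dusp6 in the re-seeded cells. Without dox it was at 67.0, 93.9, 167 and 312 FPKM in cells from 0, 24, 48 and 96 h, and with dox it was lower by at least 2-fold from 48 h (39.8 FPKM) and 96 h (103 FPKM).

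The 30 genes of the cascade itself run from adaptors to ERK and its nuclear effectors. After 24 h 2 of them rose and 1 fell, beside 8.64% and 14.3% of all genes, with a median log2 ratio of 0.09. The genes that rose were Eras, a Ras gene of embryonic stem cells (0.472 to 26.7 FPKM), and Srf, the serum response factor (7.60 to 15.9 FPKM). Kinase genes that kept within 2-fold in this comparison included Map2k1, which encodes a MEK targeted by the inhibitor, at 70.6 and 53.2 FPKM and Mapk3 at 32.4 and 30.3 FPKM. In serum/LIF against 2i/LIF at 0 h 4 rose and 0 fell, beside 12% and 10.1% of all genes. Those that rose included Eras (0.472 to 29.6 FPKM), Erf, an ETS repressor exported from the nucleus by ERK (21.5 to 50.1 FPKM), and Araf (23.7 to 49.9 FPKM). Cic, which encodes Capicua, stood at 84.1, 68.1 and 44.6 FPKM in 2i/LIF, after 24 h of withdrawal and in serum/LIF. Dox changed 0 of the 30 from 0 or 24 h. It raised 0 of them from 48 h and 1 (Rps6ka2) from 96 h. Of all genes, it raised 3.62%, 2.87%, 6.56% and 6.67% from 0, 24, 48 and 96 h. It lowered 5.61% from 0 h and 3.4% from 24 h.

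**Figure D5:**
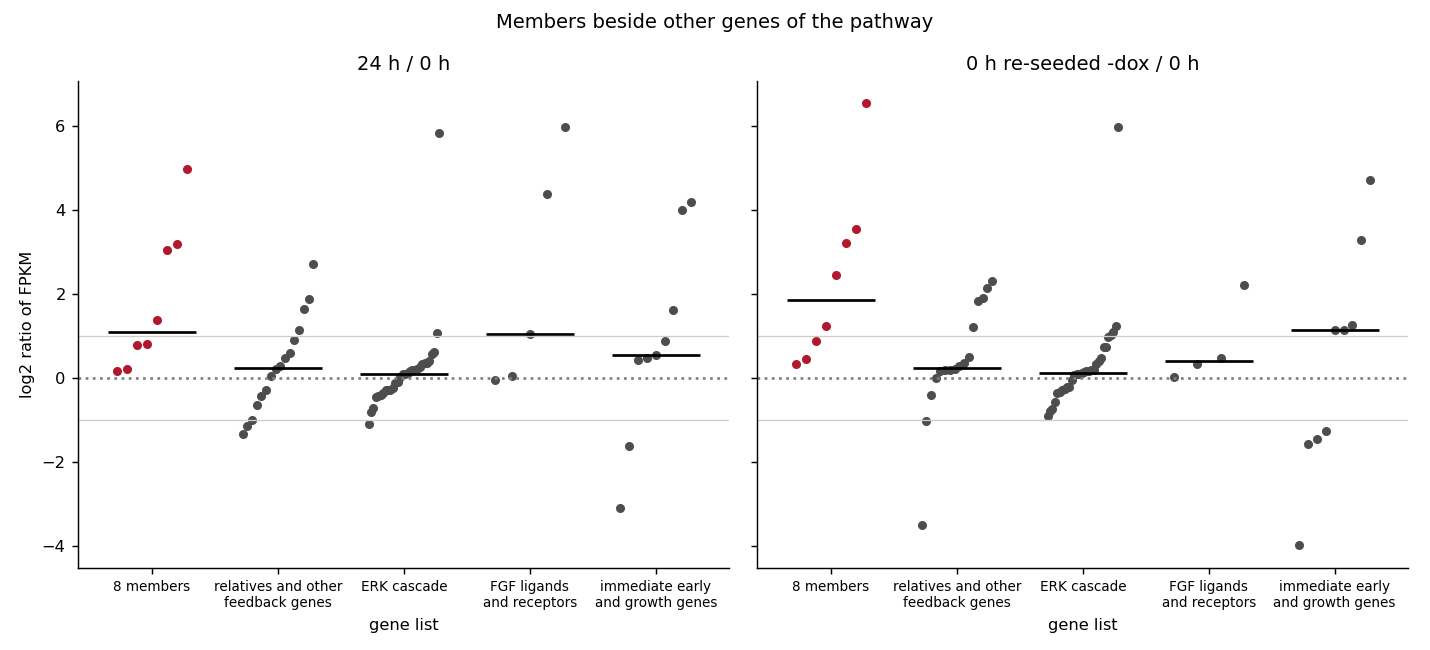
Log2 ratio of FPKM (vertical axis) of each gene in the 8 genes (red) and in 4 other lists of the pathway (grey) after 24 h of withdrawal (left) and in serum/LIF –dox cells at 0 h (right), both against 0 h in 2i/LIF. Short bars are list medians, the dotted line is the median of all genes and the pale lines mark a 2-fold difference. The medians of the 8 genes (1.09 and 1.84) lie above those of the relatives (0.24 in both) and of the cascade (0.09 and 0.12). After 24 h the FGF ligands and receptors had a median of 1.04, close to that of the 8 genes. The median of the immediate early and growth genes was 0.53 there.

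Of 12 immediate early and growth genes, 9 reached 1 FPKM in the first 24 h, of which 3 rose (Egr1, Fos and Myc) and 2 fell (Fosl2 and Ier3), beside 8.64% and 14.3% of all genes. Egr1, a zinc finger gene induced by ERK through SRF, went from 0.614 to 11.2 FPKM, and Myc from 2.53 to 40.7 FPKM. In serum/LIF at 0 h 5 of 9 rose and 4 fell, where 12% of all genes rose and 10.1% fell. Those that rose were Egr1 (to 16.1 FPKM), Ier2 (61.6 to 135 FPKM), Fos, Junb and Myc. Those that fell were Ccnd1 (43.2 to 15.7 FPKM), Ier3 (33.9 to 13.97 FPKM), Fosl1 and Fosl2. Dox at 0 h lowered 3 of the 7 that reached 1 FPKM, where 5.61% of all genes were lower. They were Egr1 (16.1 to 1.59 FPKM), Ier2 (135 to 41.9 FPKM) and Ier3, in the same comparison in which Spry2, Spry4 and Dusp6 were lower.

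Upstream, Fgf4, the ligand of naive cells, stood at 82.6, 79.1 and 3.11 FPKM after 0, 24 and 96 h of withdrawal, and Fgfr2 went from 2.38 to 60.1 FPKM. Over the 15 conditions Etv5 and Etv4 had r of 0.947 and 0.929 with Fgf4, against 0.102 for Dusp6. In cells re-seeded at 48 h, where dox raised Spry4, Etv4 and Etv5, Fgf4 went from 9.14 to 54.0 FPKM. Fgf5, a ligand of formative cells, went from 17.2 to 0.381 FPKM. From 24 h, where 0 of the 8 genes changed with dox, Fgf4 went from 26.5 to 83.0 FPKM. From 0 h, where dox lowered Spry2, Spry4 and Dusp6, Fgf4 was at 84.1 and 81.1 FPKM without and with dox. From 96 h, where dox raised Spry4, Dusp4 and Etv5, it was at 0.581 and 1.16 FPKM. A link between Fgf4 and the 8 genes was not tested.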

How the data were processed

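Per the labels and the study's methods, the authors aligned to mm10 with TopHat2 2.0.14, used Cufflinks 2.2.1 on Gencode M4 transcripts no shorter than 200 bp and combined both samples of a condition with Cuffdiff. The deposited table holds the resulting FPKM values, 1 per gene and condition, with the authors' call columns, which were not used. The library normalization is not given in the sources used here. Values were used as deposited with Python 3.11.15, numpy 2.4.6, pandas 2.3.3 and matplotlib 3.10.9, since median-ratio factors over 14518 genes ran from 0.990 to 1.03. Tests on replicates had been planned and gave way to plain ratios, because no replicate values or counts were given. All genes that reached 1 FPKM in either condition form the background. Of 22477 genes, 2 symbols had more than 1 entry. The members and lists were chosen with earlier results of these data known. Named genes were the 8 members, listed genes that changed at least 2-fold with the higher value at least 10 FPKM, and the 3 genes most like each member. The kinases, Cic, Fap and other listed genes outside this rule were chosen after their values were seen. Depth steps came from 1380 genes with a single transcript. Positions are from Gencode M21. The counting of ratios was tested on simulated data. Alternative thresholds, pseudocounts and scalings were tried.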

Additional observations from a re-analysis of the deposited data

Results flagged for a closer look

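Dox shifted Spry4 in opposite directions in cells re-seeded before and after differentiation. The log2 ratio of +dox to –dox was -1.86 in cells re-seeded at 0 h (41.5 to 11.5 FPKM) and 3.995 in cells re-seeded at 96 h (0.361 to 5.76 FPKM). The difference between the ratios was not tested, since each condition has 1 combined value. The fibroblast markers summed to 106 and 116 FPKM without and with dox at 0 h, and to 493 and 156 FPKM at 96 h. Vim alone held most of each sum, with 91.8 and 92.4 FPKM at 0 h and 299 and 105 FPKM at 96 h. The part of fibroblast RNA in the difference was not tested.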

How the results depend on the processing

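Counts of the 8 genes that changed were recomputed with a fold of 1.5 or 3, with no minimum or one of 5 FPKM, with 1 FPKM added, and with median-ratio or same-sum scaling. For the comparisons at matched total time and of +dox cells with undifferentiated –dox cells, this was added after seeing the data. Of all alternative counts, medians and likeness values, 248 were close to the reported one (counts within 1.5 times, medians of log2 ratios within a 1.5-fold distance) and 23 were not. The direction of called values was kept, but 2 medians near 0 changed sign with same-sum scaling, from -0.12 to 0.03 for –dox cells from 24 h against 24 h and from 0.06 to -0.05 for dox at 24 h. With a fold of 1.5 the count went from 1 to 2 for 24 to 36 h, from 2 to 4 for 48 to 60 h, from 0 to 1 for 60 to 72 h, from 0 to 1, 2 to 5 and 2 to 5 for –dox cells from 24, 48 and 96 h against their origin, from 3 to 6 for those from 48 h against 0 h –dox, from 3 to 6, 0 to 3 and 3 to 6 for dox at 0, 24 and 96 h, and from 2 to 5 and 4 to 7 for +dox cells from 48 and 96 h against 0 h –dox. With a fold of 3 it went to 0 for 24 to 36 h, 48 to 60 h, –dox cells from 48 h against 48 h and +dox cells from 24 h against 0 h –dox, and to 1 for –dox cells from 24 h against 0 h –dox and against 72 h and for +dox cells from 48 h against 0 h –dox. For –dox cells from 96 h against 96 h it went to 1 with a minimum of 5 FPKM and to 1 with 1 FPKM added. Same-sum scaling, which shifted the median of all genes by between -0.32 and 0.38 on the log2 scale, took both the re-seeding and the dox comparison at 24 h from 0 to 1. Median-ratio scaling shifted it by between -0.03 and 0.04. Single ratios moved by over 1.5 times in 16 cases and by less in 632, the former all with 1 FPKM added. The median Spearman rho of the pairs was 0.46, beside r of 0.51. No paired analysis was possible because the table carries 1 combined value per condition, and for that reason no replicate was left out. Depth limits the values under 1 FPKM, such as Spry4 at 0 h.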
